A study of Mus musculus with 12 samples.

Results

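HIF2α AKO and WT iWAT were compared upon cold exposure in 6 of the 12 libraries of the series, namely the 3 libraries labelled cold HIF2α AKO and the 3 labelled cold WT, over every gene row of the count table. iWAT is the inguinal fat pad, a white depot in which beige adipocytes form upon cold. Each library came from 1 male C57BL/6 mouse, and all mice were 10 weeks old. WT mice were homozygous for the floxed HIF2a allele (HIF2a loxP/loxP) without Cre, and HIF2α AKO mice carried the same floxed alleles with Adipoq-Cre. This Cre is a transgene driven by the adiponectin promoter and is active in white, beige and brown adipocytes alike, so that every AKO mouse differed from WT in Cre as well as in HIF2α. Cold mice were housed at 4 to 6 °C for 3 days, and the TN mice used here for reference were kept at 30 °C for 1 week. Of the 23420 genes in the table, 18878 had at least 1 count in the 6 cold libraries, and the 15306 genes that passed a filter on low counts over all 12 libraries were tested.

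HIF2α, encoded by Epas1, is the oxygen-regulated subunit of a transcription factor. Prolyl hydroxylases mark it for degradation when oxygen is plentiful, and once stabilised it pairs with ARNT and binds short DNA motifs called hypoxia response elements. Cold makes sympathetic nerves release noradrenaline onto adipocytes, where β-adrenergic receptors raise cAMP, cAMP releases the catalytic subunits of protein kinase A (PKA), and PKA drives lipolysis and the thermogenic program that ends in the uncoupling protein UCP1. The comparison asks which transcripts of this program, and which others, differ when adipocytes are made to lack HIF2α in the cold.

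Values per mouse are given as CPM, that is, counts scaled to library size with TMM factors. A gene is said to pass when its unadjusted p in edgeR's quasi-likelihood test is under 0.05. By this rule 451 genes, or 2.95% of those tested, passed in the cold, with 257 (1.68%) higher and 194 (1.27%) lower in AKO-labelled libraries. The split depended on the setting, at 325 higher and 135 lower with DESeq2's size factors, 338 and 599 without cold WT replicate 3, and 528 and 649 with voom. The share of 2.95% lies under the 5% that pass on average when no gene differs, so a gene that passes alone is weak evidence of a difference. After Benjamini-Hochberg adjustment over all tested genes, 1 gene (0.00653%) had an adjusted p under 0.05. In bulk tissue, fewer cells of a type and less RNA per cell cannot be told apart.

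2 cold libraries stood apart, the first from all other cold libraries and the second from the other WT libraries. Cold HIF2α AKO replicate 1 held skeletal muscle transcripts, with a summed level of 2337 CPM over 26 muscle markers against 172 to 213 CPM in the other 5 cold libraries, and the fast myosin Myh4 stood at 405, 1.65 and 0.641 CPM in the AKO-labelled libraries. Cold WT replicate 3 had the highest summed level of fatty acid and triglyceride synthesis genes (89049 CPM, against 52896 and 38973 CPM in the other WT libraries) and the lowest of macrophage markers (1593 CPM, against 3157 and 2732 CPM). The count of passing genes was 220 without the first, 937 without the second and 395 without both. Whatever the p, 6706 tested genes were higher and 8599 lower in AKO-labelled libraries. These numbers were 6759 and 8546 without the first library and 8376 and 6924 without both. Values without cold HIF2α AKO replicate 1 are therefore given beside those with all libraries where a call was lost or gained or the value moved by more than 1.5 times, and for many other genes as well. Without that library, 115 of the 15306 genes (0.751%) passed as higher and 96 (0.627%) as lower, and 75 and 70 genes passed in the same direction both with and without it. Adipocyte transcripts were abundant in every cold library, with 18 adipocyte identity genes summing to between 33081 and 66348 CPM.

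The labelled genotype was first examined at Epas1. Its level was 986, 743 and 749 CPM in AKO-labelled and 576, 562 and 743 CPM in WT libraries, so that the AKO-labelled libraries were not below WT. The groups were separate by a narrow margin, and the log2 fold change of 0.40 did not pass. It was 0.25 without cold HIF2α AKO replicate 1 and -0.051 at TN. By RT-qPCR, the study reported lower Hif2a (Epas1) mRNA in adipose tissue of its AKO mice. A count over all exons cannot show whether the loxP-flanked stretch was removed, so the genotype could not be checked here and is given as labelled. The oxygen sensors and partners of HIF2α gave little separation. Among the 10 HIF subunits and hydroxylases, 0 passed as higher and 1 as lower, with a median log2 fold change of 0.018 beside -0.022 over all tested genes. The passing gene was Hif3a, a HIF α subunit that can act as a brake on the others, at 1.94, 2.01 and 2.56 CPM in AKO-labelled against 7.61, 2.14 and 3.34 CPM in WT libraries. The groups overlapped, as WT replicate 1 was far above all other libraries, and the log2 fold change of -1.0 no longer passed without cold HIF2α AKO replicate 1 (-0.93). Egln1 (PHD2), the main prolyl hydroxylase for HIF α subunits, was at 264, 193 and 169 CPM against 158, 155 and 159 CPM. All AKO-labelled libraries lay above WT, at a log2 fold change of 0.41 that was 0.20 without cold HIF2α AKO replicate 1. On a scale per length (CPM per kilobase of exon), the mean level in cold WT libraries was 112 for Epas1, 22.8 for Hif1a, 12.3 for Arnt and 0.650 for Hif3a, and in AKO-labelled libraries 148, 25.8, 12.1 and 0.323. The remaining members were close to WT. Their log2 fold changes were 0.18 for Hif1a, -0.025 for Arnt, 0.11 for Arnt2, -0.019 for Egln2, -0.17 for Egln3, 0.054 for the asparaginyl hydroxylase Hif1an and -0.036 for Vhl, which encodes the ubiquitin ligase subunit that binds hydroxylated HIF. With cold HIF2α AKO replicate 1 left out these were 0.13, -0.054, 0.19, -0.029, -0.25, 0.024 and -0.025, and 0 of the 10 members passed.

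HIF target genes, tested as a list of 25 with 24 in the tested set, were split evenly, with 12 higher and 12 lower and a median log2 fold change of 0.017, or 0.034 without cold HIF2α AKO replicate 1. Hmox1, which encodes the haem-degrading enzyme haem oxygenase 1, was the member that passed as lower. It stood at 50.3, 69.4 and 63.9 CPM in AKO-labelled libraries and 107, 128 and 95.1 CPM in WT libraries, without overlap. Its log2 fold change was -0.85, and without cold HIF2α AKO replicate 1 it was -0.72 and did not pass. At TN the same gene was higher in AKO-labelled libraries, at 251, 111 and 113 against 127, 61.4 and 47.2 CPM (log2 fold change 1.01). The glycolytic enzyme gene Pgk1 passed as higher with a log2 fold change of 0.42, which was 0.21 without that library and did not pass. Vegfa, the vessel growth factor most often used to read out HIF activity, was at 555, 494 and 446 CPM against 392, 437 and 471 CPM, and the groups overlapped.

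The gene with an adjusted p under 0.05 was Zfp949, which encodes a zinc finger protein. Its CPM was 31.8, 37.7 and 44.1 in AKO-labelled and 13.6, 12.1 and 13.2 in WT libraries with a wide gap between the groups. The log2 fold change was 1.55 (standard error 0.13, edgeR adjusted p = 0.00278), and it was 1.66 without cold HIF2α AKO replicate 1. At TN, in other mice fitted in the same model, it was 1.57 (standard error 0.13). Zfp949 lies on chromosome 9 from 88548020 to 88571061 (GRCm38), and its neighbours differed as well. Of the 14 other tested genes within 1 Mb, 7 passed in cold, at TN or over both temperatures, whereas 6.95% of all tested genes did. In the cold 3 of them passed, all lower. These were the long noncoding gene 9430037G07Rik at 1.74, 0.925 and 1.28 against 2.24, 2.18 and 2.45 CPM (log2 fold change -0.80, and -1.04 at TN), Bcl2a1d, of the anti-apoptotic Bcl2a1 family, at 2.37, 2.17 and 4.61 against 7.52, 7.60 and 4.06 CPM (log2 fold change -1.06, -0.91 and short of passing without cold HIF2α AKO replicate 1, and -1.08 at TN), and the transcription factor gene Tbx18 at 5.91, 4.74 and 5.69 against 6.13, 8.46 and 6.72 CPM (log2 fold change -0.38, and -0.51 at TN). Reads can be shared among the near-identical Bcl2a1 copies, so that the value of Bcl2a1d is uncertain. Snhg5, a host gene of small nucleolar RNAs, Gm2382 and 9330159M07Rik passed over both temperatures, also lower, with log2 fold changes of -0.34, -0.19 and -0.60 in cold and -0.53, -0.35 and -0.57 at TN. In the cold 9330159M07Rik passed once cold HIF2α AKO replicate 1 was left out (-0.78). Around Epas1 itself, 1 of 12 tested neighbours passed at TN and over both temperatures, the epithelial adhesion gene Epcam, and TN WT replicate 3 held 341 CPM of epithelial markers.

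A similar cluster lay beside Adipoq on chromosome 16, whose promoter drives the Cre transgene. Adipoq was at a log2 fold change of -0.21 with overlapping groups, but the run of 6 tested genes next to it on the 5′ side was higher in AKO-labelled libraries. Kng2, which encodes kininogen 2, a precursor of the vasoactive kinins, stood at 39.8, 18.6 and 17.7 CPM in AKO-labelled and 6.94, 5.17 and 2.70 CPM in WT libraries. The groups were far apart, and the log2 fold change was 2.36 (standard error 0.41), and 1.88 without cold HIF2α AKO replicate 1. Its paralog Kng1 had 70, 43 and 34 counts in the AKO-labelled libraries and 0 counts in each WT library, so that it was at least 49.1-fold higher when WT is set to a floor of 3 counts over its 3 libraries, a bound that covers counting error only. Reads can pass between such near-identical copies, so that the split between Kng1 and Kng2 is uncertain. Eif4a2, encoding a translation initiation helicase, was at 503, 543 and 495 CPM against 354, 340.0 and 348 CPM and did not overlap. Its log2 fold change was 0.56 (standard error 0.10) in cold and 0.50 at TN. Snora81 and Snord2, small nucleolar RNA genes, lie inside Eif4a2. Their log2 fold changes of 0.69 and 0.56 are therefore not separate measurements of it. Rfc4 (0.53) lies on the opposite strand from 23113943 to 23127737 and overlaps Eif4a2 only up to 23114136. The part of shared reads in the Rfc4 value was not tested. At TN Kng1 had at most 1 count and Kng2 at most 12 counts in a library, and the Kng2 log2 fold change was 1.15. Of the 16 tested neighbours of Adipoq within 1 Mb, 5 passed as higher and 1, Etv5, as lower (-0.34) in the cold. Rfc4 (0.49) and Etv5 (-0.32) did not pass without cold HIF2α AKO replicate 1. Every AKO mouse carried the Adipoq-Cre transgene, and its part in these differences cannot be told apart from that of HIF2α loss.

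**Figure D1:**
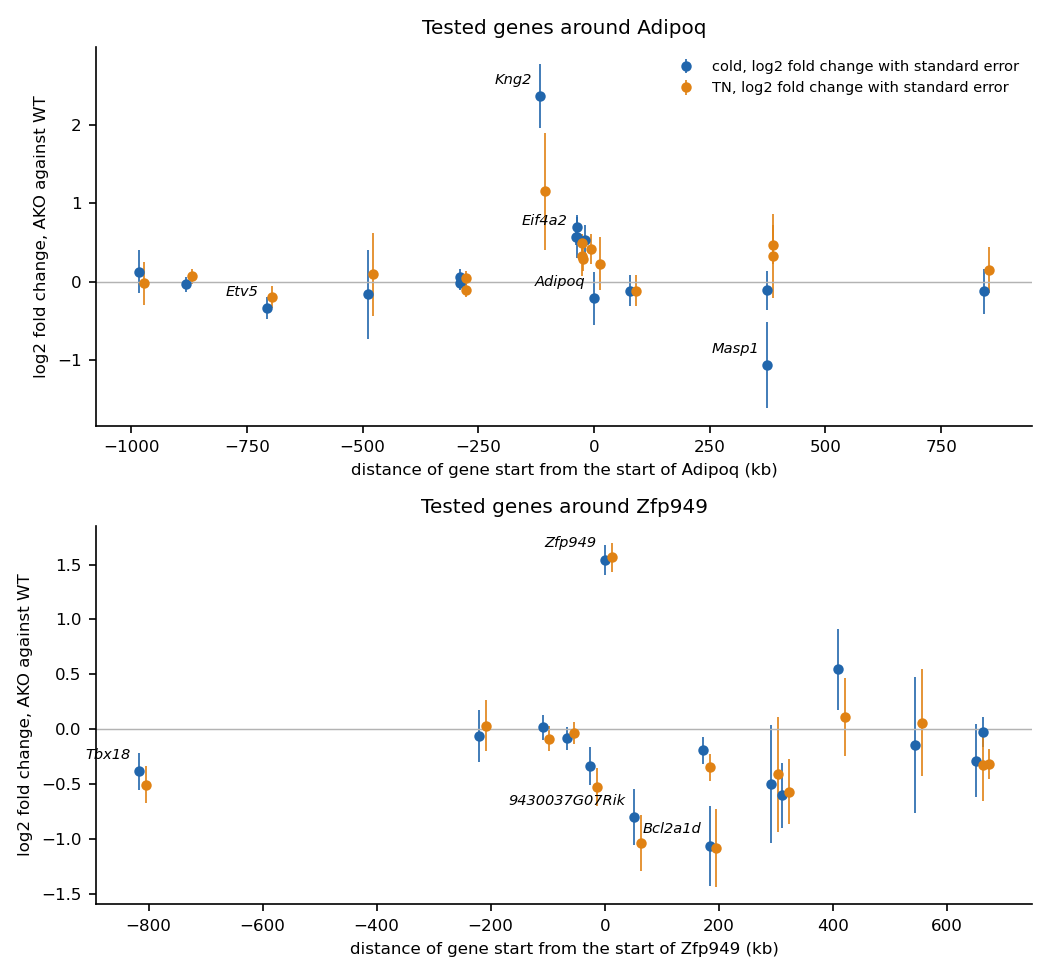
Log2 fold changes of AKO-labelled against WT libraries in cold (blue) and at TN (orange, shifted slightly to the right) for the tested genes within 1 Mb of Adipoq (top) and Zfp949 (bottom), against the distance of each gene's start in kb. Bars are standard errors of the edgeR fit with 3 mice per group, and Kng1, with 0 counts in WT, is not drawn. Kng2 (2.36) and Eif4a2 (0.56) sit above 0 on the 5′ side of Adipoq in cold, and Zfp949 is at 1.55 in cold and 1.57 at TN among neighbours that are mostly at or below 0.

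To show where these genes start, the 250 bases before the RefSeq start (GRCm38.p6) are printed for the called gene, for its counterpart beside Adipoq, Kng2, and for Acot11 and Acsl5, the thermogenic genes with the smallest p described next. Capitals mark the core letters of the hypoxia response element, ACGTG or GCGTG on either strand. These letters are common, as they occur in 38.6% of the 32851 RefSeq promoters of this length and in 52.8% of the 14275 that matched a tested gene by symbol.
Zfp949, chr9:88547770-88548019, + strand: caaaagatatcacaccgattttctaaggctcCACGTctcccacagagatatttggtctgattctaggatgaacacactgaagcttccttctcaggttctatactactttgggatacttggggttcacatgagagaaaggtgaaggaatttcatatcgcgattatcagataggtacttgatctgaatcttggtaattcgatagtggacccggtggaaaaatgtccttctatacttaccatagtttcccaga
Kng2, chr16:23029102-23029351, - strand: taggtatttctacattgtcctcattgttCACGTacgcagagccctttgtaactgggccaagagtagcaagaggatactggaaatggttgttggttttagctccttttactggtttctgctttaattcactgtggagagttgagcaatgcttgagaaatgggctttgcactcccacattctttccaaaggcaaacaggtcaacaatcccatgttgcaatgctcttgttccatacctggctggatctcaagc
Acot11, second start, chr4:106799832-106800081, - strand: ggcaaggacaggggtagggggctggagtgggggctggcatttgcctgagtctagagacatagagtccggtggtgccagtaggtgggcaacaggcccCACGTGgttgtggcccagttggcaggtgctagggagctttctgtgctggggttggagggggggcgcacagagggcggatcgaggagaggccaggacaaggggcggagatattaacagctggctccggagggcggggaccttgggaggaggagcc
Acsl5, chr19:55253119-55253368, + strand: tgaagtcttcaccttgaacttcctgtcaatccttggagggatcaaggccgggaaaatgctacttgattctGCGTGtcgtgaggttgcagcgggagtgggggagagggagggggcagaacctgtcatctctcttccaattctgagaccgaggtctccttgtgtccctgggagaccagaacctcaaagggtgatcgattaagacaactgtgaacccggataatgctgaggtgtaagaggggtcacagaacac
The match in Acot11 is palindromic and is therefore counted on both strands, and the other RefSeq start of Acot11 holds no match in this window. Among the 12 genes named below as highest by fold change, 9 had an entry, with 10 promoters of which 6 hold the core. For the 12 genes named as lowest, 4 promoters were found, of which 1 holds the core. Of the 22 promoters found for the thermogenic list, 15 hold it, as do 25 of the 31 found for the HIF target list. The full cAMP response element, TGACGTCA, occurs in 2.36% of the promoters of tested genes and in 0 of the 10 promoters of the highest genes. A match is a description of the letters and not a site.

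The thermogenic and beige genes were the list with the most members past the test apart from skeletal muscle. The list was chosen with earlier results of these data known, so its counts beside those of all genes are a description. With all libraries, 24 of 24 tested members had a higher fitted level in AKO-labelled libraries, 8 passed, 16 met the limits the study used, an unadjusted p under 0.15 with a log2 fold change beyond 0.2 in size, and 12 lay wholly above WT. Over all tested genes, 725 (4.74%) met those thresholds as higher and 649 (4.24%) as lower, or 906 and 511 with DESeq2's size factors in place of TMM, while 3.8% lay wholly above WT and 3.73% wholly below. The median log2 fold change of the list was 0.65. Without cold HIF2α AKO replicate 1 it was 0.40, 21 members were higher and 3 (Dio2, Nrg4 and Fgf21) lower, and 4 passed, and without both libraries that stood apart it was 0.36. The 4 that passed without cold HIF2α AKO replicate 1 were Acot11, Acsl5, Letmd1 and Bmp8b.

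Acot11 encodes an acyl-CoA thioesterase, first described as brown-fat-inducible, that releases fatty acids from acyl-CoA. Its CPM was 238, 143 and 139 in AKO-labelled and 77, 64.2 and 65.7 in WT libraries. The lowest AKO-labelled library was above the highest WT library, and Acot11 differed by 1.33 on the log2 scale (standard error 0.22, edgeR adjusted p = 0.438, DESeq2 adjusted p = 5.43e-05 on the 6 cold libraries) and 1.03 without cold HIF2α AKO replicate 1. At TN it was -0.0031, and the interaction of genotype and temperature was 1.33 (standard error 0.32). Acsl5, which makes the acyl-CoA that such thioesterases act on, was at 377, 293 and 202 CPM against 177, 131 and 136 CPM. These groups did not overlap either, and the log2 fold change was 0.97 (standard error 0.19), or 0.74 without cold HIF2α AKO replicate 1 and of -0.026 at TN. Letmd1, a mitochondrial protein needed for thermogenesis in brown adipocytes, was at 589.7, 335 and 359 CPM against 209.7, 254 and 257 CPM, with a log2 fold change of 0.83 and 0.53 without that library. The groups were separate for Letmd1 as well. Bmp8b, a secreted factor of brown and beige adipocytes that sensitises them to adrenergic input, was at a low level in both groups, 9.97, 6.67 and 4.89 CPM against 2.55, 2.18 and 0.442 CPM, giving 2.06 on the log2 scale (standard error 0.52). WT replicate 3 was far below the others, and the value was 1.60 without it and 1.75 without cold HIF2α AKO replicate 1.

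Ucp1 itself, the uncoupling protein, was at 5897, 4046 and 4146 CPM in AKO-labelled libraries and 2238, 3506 and 2171 CPM in WT. All AKO-labelled libraries were above all WT libraries, yet the log2 fold change of 0.83 (standard error 0.49) did not pass, and it was 0.63 without cold HIF2α AKO replicate 1. Cidea, which promotes lipid droplet fusion, was at 1336, 782 and 924 CPM against 511, 750.1 and 583 CPM (log2 fold change 0.72, and 0.47 without that library), again without overlap and without passing. The very long chain elongase gene Elovl3 was at 443, 249 and 237 CPM against 145, 107 and 288 CPM and overlapped through WT replicate 3 (log2 fold change 0.78, and 0.43 without that AKO-labelled library). The cytochrome c oxidase isoform genes Cox7a1 and Cox8b had log2 fold changes of 0.88 and 0.38, the coactivator Ppargc1a 0.64 and the beige fate regulator Prdm16 0.46, and none of the 4 passed. These values were, with cold HIF2α AKO replicate 1 left out, 0.42, 0.20, 0.32 and 0.45. Dio2, which activates thyroid hormone, was the nearest to WT among the thermogenic genes that the study follows. Its level was 368, 199 and 222 CPM against 209, 201 and 262 CPM, with a log2 fold change of 0.23 that was -0.09 without cold HIF2α AKO replicate 1. The groups were separate for Ucp1, Cidea, Cox7a1 and Prdm16, and cold HIF2α AKO replicate 1 was the highest library of the 6 for Ucp1, Cidea, Cox7a1, Cox8b, Elovl3, Ppargc1a and Dio2. Muscle markers were highest in that same library, and their part in these values was not tested. At TN Ucp1 was at 0.740, 0.722 and 3.85 CPM in AKO-labelled and 0.204, 0.446 and 0.648 CPM in WT libraries and passed, with a log2 fold change of 2.07.

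**Figure D2:**
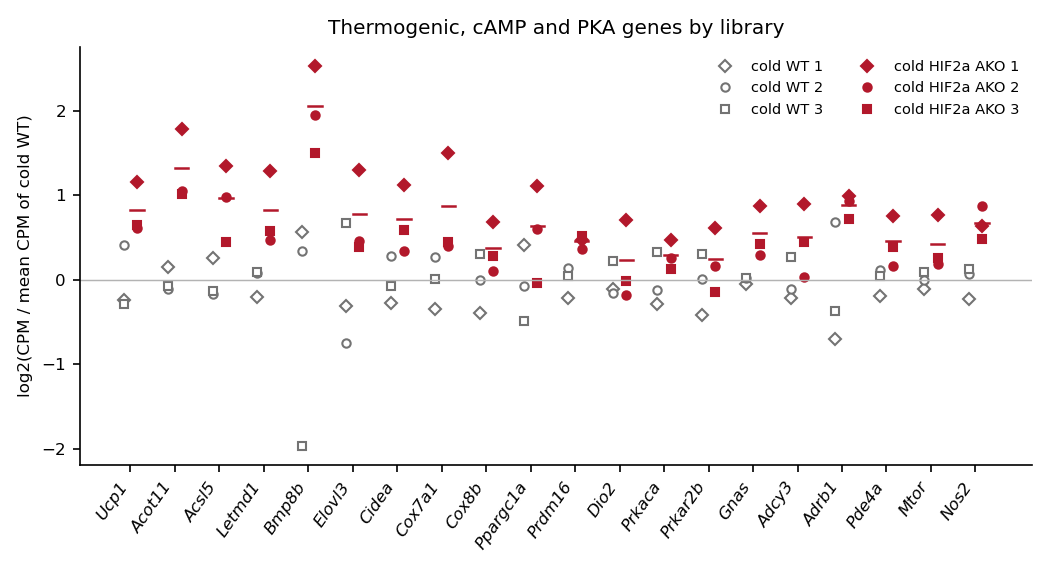
Level of thermogenic, cAMP and PKA genes in each cold library, as log2 of its CPM over the mean CPM of cold WT; open symbols are the 3 WT and filled symbols the 3 AKO-labelled libraries, and bars mark the mean of the latter. Acot11, Acsl5, Letmd1 and Bmp8b are separate between the groups in all libraries, and the filled diamond, cold HIF2α AKO replicate 1, is the highest for most of the genes.

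The cAMP and PKA pathway was ordered from receptor to kinase. Of its 27 tested genes, 20 were higher and 7 lower. Their median log2 fold change was 0.16 and 0.077 without cold HIF2α AKO replicate 1, and 4 genes passed, all higher. Adrb1, the β1-adrenergic receptor, was at 12.4, 11.9 and 10.3 CPM against 3.85, 10.0 and 4.83 CPM, with separate groups and a log2 fold change of 0.89. Gnas, which encodes the stimulatory G protein that couples these receptors to adenylyl cyclase, was at 3098, 2068 and 2278 CPM against 1639, 1722 and 1712 CPM, a log2 fold change of 0.55. Adcy3, an adenylyl cyclase, was at 343, 189 and 252 CPM against 159.7, 171 and 223 CPM and overlapped with WT, and the phosphodiesterase gene Pde4a, whose product breaks cAMP down, was at 71.6, 47.6 and 55.4 CPM against 37.1, 46.1 and 43.8 CPM without overlap. Their log2 fold changes were 0.50 and 0.46. Without cold HIF2α AKO replicate 1, 0 of the 27 passed, with log2 fold changes of 0.83 for Adrb1, 0.36 for Gnas, 0.26 for Adcy3 and 0.28 for Pde4a.

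Prkaca, the gene of the PKA catalytic subunit Cα that the study follows, was at 377, 324 and 295 CPM in AKO-labelled and 221, 249 and 341 CPM in WT libraries. The groups overlapped, because WT replicate 3 lay above 2 of the AKO-labelled libraries, and the log2 fold change was 0.30 (standard error 0.25), 0.20 without cold HIF2α AKO replicate 1 and 0.50 without cold WT replicate 3. With all libraries its unadjusted edgeR p was 0.268. The study's limit of 0.15 was set on DESeq2, so the 2 are not a like comparison. The study ranked Prkaca highly in its network of differentially expressed genes. It also reported elevated PKA Cα in AKO iWAT upon cold by RT-qPCR and western blot. The regulatory subunit genes Prkar1a and Prkar2b had log2 fold changes of 0.068 and 0.25, and of 0.028 and 0.019 without cold HIF2α AKO replicate 1. Mtor, the nutrient-sensing kinase, was at 296, 199 and 208 CPM against 162, 174 and 186 CPM, with separate groups and a log2 fold change of 0.43 that passed but was 0.23, short of passing, without cold HIF2α AKO replicate 1. Nos2, the inducible nitric oxide synthase, passed both with and without that library. It was at 14.4, 16.9 and 13 CPM against 7.92, 9.70 and 10.1 CPM, without overlap, at a difference of 0.68 on the log2 scale (standard error 0.19) and 0.69 without it, beside -0.21 at TN.

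The microRNA miR-3085-3p was examined by the study together with the Prkaca 3′UTR, so its sequence and the place it matches are printed here. Capitals mark the seed, bases 2 to 8 of the mature RNA (RefSeq, GRCm38.p6, chr19:42280095-42280115, - strand), and its complement in the longest annotated Prkaca transcript.
mmu-miR-3085-3p: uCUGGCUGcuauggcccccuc
Prkaca 3′UTR: agggttggatcgaaCAGCCAGa
The Prkaca 3′UTR of 1026 bases holds this 7-base match once, from base 89 to base 95. The miRNA's host entry Mir3085 had 0 counts in all 12 libraries, which allows up to 3 counts in each and covers counting error only, and mature miRNAs are not measured by these libraries. Of the 13759 tested genes with an annotated 3′UTR, 22.4% hold the same match. Their median log2 fold change was -0.019 in the cold, beside -0.022 for genes without it, and -0.007 for the 802 genes with 2 or more matches. Without cold HIF2α AKO replicate 1 these medians were -0.013, -0.020 and -0.004. Genes with the match had longer 3′UTRs, with a median of 2277 against 902 bases.

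The medians of fuel-handling lists moved with both libraries that stood apart. Complex I subunits were higher in 35 of 35 tested members and complex III, IV and V subunits in 33 of 35, but 1 of these 70 passed, Ndufb2 (97.9, 69.8 and 63.7 against 54.1, 53.6 and 60.9 CPM, log2 fold change 0.46, and 0.25 without cold HIF2α AKO replicate 1). The median of both lists was 0.25. For complex I it was 0.095 without that library, 0.37 without cold WT replicate 3 and 0.25 without both. TCA cycle enzymes were higher in 18 of 18, and their median of 0.30 was 0.12, 0.42 and 0.28 in the same 3 settings. Suclg1, a succinyl-CoA ligase subunit, passed at 659.7, 409.7 and 448 against 337, 339.6 and 403 CPM (log2 fold change 0.49), but not without cold HIF2α AKO replicate 1 (0.25). Glycolytic enzymes were higher in 15 of 15 with a median of 0.39, which was 0.20, 0.46 and 0.29 in those settings. Pfkl, the liver-type phosphofructokinase that sets the pace of glycolysis, was at 749, 481 and 554 CPM against 322, 350.4 and 408 CPM and did not overlap with WT (log2 fold change 0.72, and 0.52 and short of passing without cold HIF2α AKO replicate 1). Fatty acid oxidation enzymes were higher in 18 of 19 without any passing, and fatty acid and triglyceride synthesis genes in 18 of 20 without any passing, where Fasn, the fatty acid synthase, overlapped widely at 29645, 20904 and 22328 against 19112, 14166 and 31799.9 CPM. Lists of lipid handling moved with cold WT replicate 3. Without it the median went from 0.23 to 0.54 for synthesis, from 0.25 to 0.48 for oxidation, and from 0.061 to 0.28 for lipolysis and lipid droplet genes, and 2, 2 and 0 members passed as higher. Over the 15306 genes of the main fit, 336 passed as higher without cold WT replicate 3. Without cold HIF2α AKO replicate 1 the oxidation median was 0.065 and the synthesis median 0.13.

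Futile cycles other than UCP1 were covered by 11 tested genes of creatine and calcium cycling, of which 3 passed as higher. Ckb, the creatine kinase of the thermogenic creatine cycle, was at 352, 191 and 218 CPM against 183, 186 and 124 CPM, with a log2 fold change of 0.63. Alpl, the phosphatase that splits phosphocreatine in that cycle, was at 40.6, 26.3 and 29.4 CPM against 19.1, 24.7 and 23.7 CPM (0.51), and Itpr2, a calcium release channel, at 107, 86.4 and 94.5 CPM against 82.7, 78.2 and 72.6 CPM (0.30). All 3 were separate between the groups, none passed without cold HIF2α AKO replicate 1, and the values were then 0.32, 0.31 and 0.22. Alpl went the other way at TN, at -0.51.

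Immediate early and chemokine genes did not follow that library. Of 18 immediate early genes 2 passed as higher with all libraries and 4 without cold HIF2α AKO replicate 1, in which the list's summed level was the lowest of the AKO-labelled libraries. Dusp1, a phosphatase that turns off MAP kinases, passed both times at 64.5, 82.9 and 70.6 CPM against 45.2, 55.9 and 56.9 CPM, with separate groups and a log2 fold change of 0.46 or 0.54 without it. Nr4a1, an orphan nuclear receptor induced by cAMP, was at 19.4, 55.5 and 29.5 CPM against 19.6, 29.2 and 17.5 CPM, a log2 fold change of 0.66 and 0.95 without that library. Errfi1, a feedback inhibitor of EGF receptor signalling that glucocorticoids induce, was at 52.7, 49.3 and 66.3 CPM against 45.8, 37.7 and 32.3 CPM. It did not overlap and passed both times, with log2 fold changes of 0.54 and 0.58, and it also passed at TN (0.37). In the same glucocorticoid list Fkbp5, a chaperone of the receptor, was lower (66.5, 53.6 and 70.9 against 171, 62.8 and 78 CPM, log2 fold change -0.71, and -0.74 and short of passing without cold HIF2α AKO replicate 1), where WT replicate 1 was far above the rest.

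Among 17 chemokine genes, 2 passed as lower and 1 as higher. Ccl9 was at 37.4, 36.2 and 30.1 CPM against 57.2, 51.1 and 38.5 CPM without overlap, and Ccl6, its neighbour on chromosome 11, at 79.8, 63.4 and 58.6 CPM against 109, 102 and 74.3 CPM, with log2 fold changes of -0.50 and -0.50 and of -0.56 and -0.64 without cold HIF2α AKO replicate 1. Both are chemokines of myeloid cells. The monocyte chemoattractant Ccl2 was higher at 3.20, 8.28 and 6.85 CPM against 3.13, 4.70 and 2.78 CPM (log2 fold change 0.79, and 1.10 without that library), and Ccl7 beside it was at 2.23, 10.0 and 4.29 CPM against 2.73, 3.29 and 2.25 CPM (1.00, and 1.37).

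Lists of immune and matrix genes went different ways, and few of their members passed. All 15 macrophage markers, 15 of 15 complement genes, 14 of 14 T and NK cell markers and 12 of 12 cell cycle genes were lower, with medians of -0.39, -0.26, -0.24 and -0.47, beside -0.022 over all genes. Dendritic cell and MHC class II markers were instead 7 higher and 3 lower, collagens 7 and 8, chemokines 8 and 9 and interferon genes 8 and 11. Without cold HIF2α AKO replicate 1 chemokines were 15 higher and 2 lower, interferon genes 14 and 5, B cell and lymph node markers 8 and 6 (3 and 11 with it), and T and NK cell markers 4 and 10. Of the 56 entries in the 4 lower lists 1 passed, C3ar1, the receptor for complement fragment C3a on myeloid cells, at 14.4, 16.2 and 16.5 CPM against 21.8, 34.5 and 14.6 CPM (log2 fold change -0.59 with WT replicate 3 inside the AKO-labelled range, and -0.53 and short of passing without cold HIF2α AKO replicate 1). The summed macrophage markers were 1794, 1909 and 2062 CPM in AKO-labelled and 3157, 2732 and 1593 CPM in WT libraries, so that WT replicate 3 lay below every AKO-labelled library. Without that WT library 12 of the 15 macrophage markers and 5 of the 15 complement genes passed as lower, and without both libraries that stood apart 5 and 3 did. Over the 15306 genes of the main fit, 597 passed as lower without that WT library and 169 without both. The T and NK cell median was -0.06 without cold HIF2α AKO replicate 1. Matrix genes were lower in 17 of 22, and in 14 of 22 without cold HIF2α AKO replicate 1. Their median was -0.13, and -0.052 without that library. Mgp, a calcification inhibitor of the matrix, was at 24.9, 26.5 and 30.6 CPM against 37.9, 33.7 and 37.2 CPM and the proteoglycan Bgn at 212, 236 and 275 CPM against 289, 319 and 286 CPM, both without overlap, with log2 fold changes of -0.41 and -0.31 that did not pass without cold HIF2α AKO replicate 1 (-0.34 and -0.22). Collagens had a median of -0.0076, and 0 of 15 passed. Glycam1, a mucin of lymph node venules, was lower at 68.3, 79.9 and 101 CPM against 138, 146 and 114 CPM (-0.67, and -0.55 without cold HIF2α AKO replicate 1), while the summed lymph node and B cell markers overlapped between the groups, and endothelial markers had a median of 0.08. In the remaining lists of clock genes, heat shock, ER stress, antioxidant, vessel growth, interferon and ribosomal protein genes, between 0 and 2 members passed. These included Cirbp, an RNA-binding protein named for its induction by cold, which was lower at 46.9, 55.6 and 44.6 CPM against 64.9, 61.4 and 56.3 CPM (-0.31, -0.28 without cold HIF2α AKO replicate 1, and -0.54 at TN), and Nrp2, a coreceptor for VEGF, which was higher at 109, 115 and 112 CPM against 95.7, 106 and 86.1 CPM (0.22, and 0.24 without that library). None of Glycam1, Cirbp and Nrp2 passed without it. Of the 16 clock genes, 1 passed as lower both with and without cold HIF2α AKO replicate 1.

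**Figure D3:**
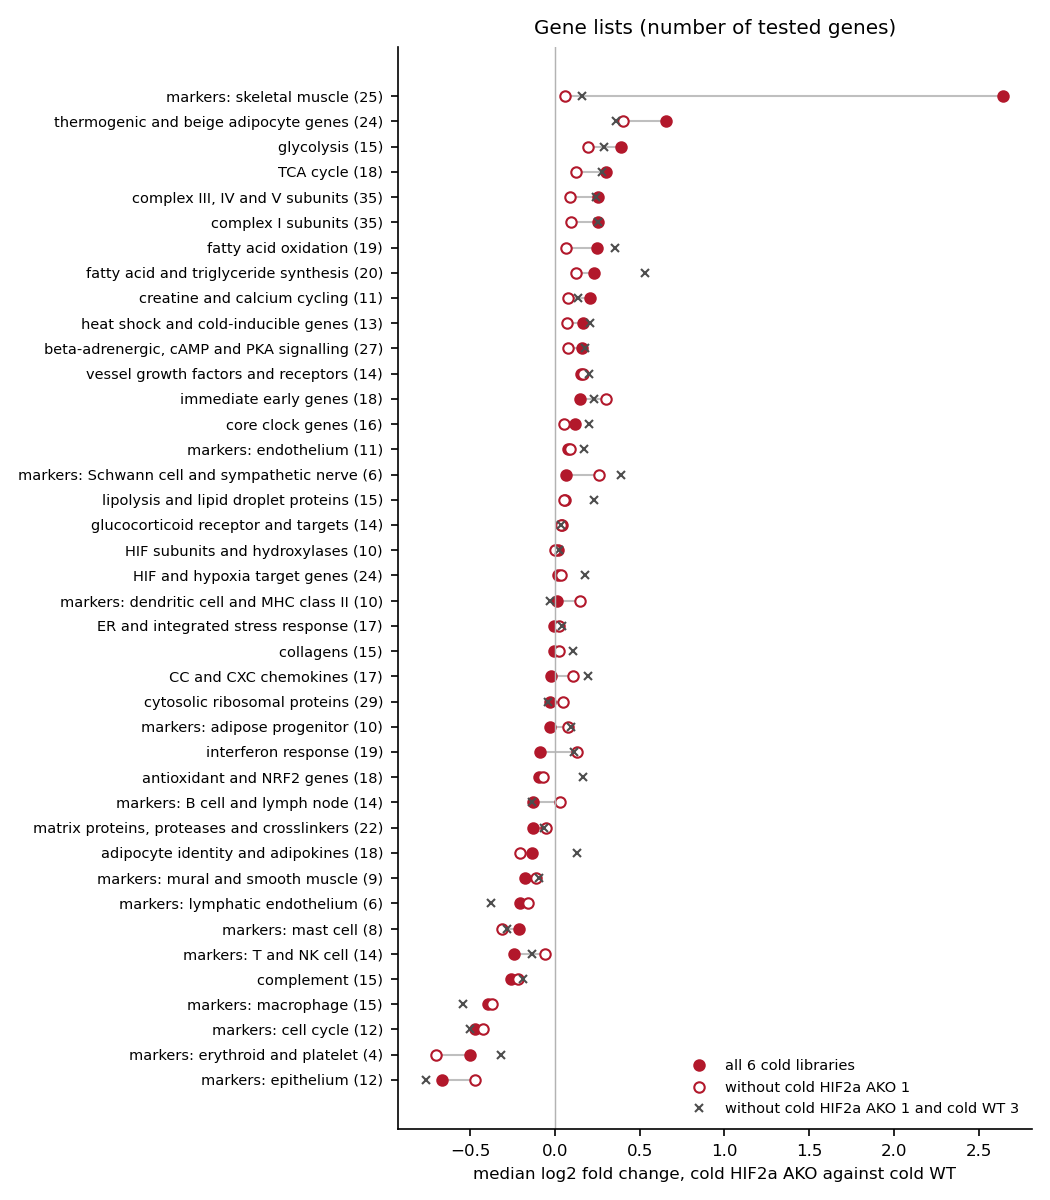
Median log2 fold change of each gene list, cold HIF2α AKO against cold WT, with all 6 cold libraries (filled), without cold HIF2α AKO replicate 1 (open) and without that library and cold WT replicate 3 (crosses); the number of tested genes is in brackets. The skeletal muscle median falls from 2.64 to 0.061 without cold HIF2α AKO replicate 1, the thermogenic median from 0.65 to 0.40, and the macrophage and cell cycle medians stay below 0 in all 3 settings.

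Beyond the lists, 82 genes passed with and without cold HIF2α AKO replicate 1, had a mean of at least 50 counts over the cold libraries and showed no overlap, with 48 higher and 34 lower. The 12 with the largest difference in each direction are shown by library. Besides Kng2, Bmp8b, Zfp949, Acot11 and Acsl5, the higher genes were 6430571L13Rik, Fam131c, Gmpr, Tmem246, 2310042D19Rik, Impa2 and Phospho1. Of these, 6430571L13Rik was at 11.2, 4.95 and 8.85 CPM against 1.92, 3.55 and 2.82 CPM, a log2 fold change of 1.59 and 1.32 without cold HIF2α AKO replicate 1. Fam131c was at 21.8, 11.5 and 12.6 CPM against 5.50, 7.90 and 3.70 CPM (1.43, and 1.08 without that library), and Impa2, an inositol monophosphatase, at 68.5, 40.1 and 43.3 CPM against 29.1, 30.7 and 22.3 CPM (0.89, and 0.61). Gmpr, a GMP reductase of purine recycling, was at 81.9, 35.9 and 34.2 CPM against 33.6, 18.3 and 22.2 CPM (1.04), and this value was 0.51 without cold HIF2α AKO replicate 1. Phospho1, a phosphatase acting on phosphocholine, was at 58.9, 34.7 and 28.6 CPM against 20.9, 26.8 and 19.2 CPM (0.87, and 0.50 without that library). Tmem246, a membrane protein gene, and 2310042D19Rik had log2 fold changes of 1.01 and 0.97, and of 0.69 and 0.60 without that library. In 11 of the 12, Zfp949 being the exception, cold HIF2α AKO replicate 1 was the highest of the AKO-labelled libraries. Each gene passed without it because the choice required this.

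Lower genes were led by Serpina3k, a secreted serine protease inhibitor, at 0.968, 1.13 and 1.24 CPM against 6.85, 1.58 and 13.9 CPM, a log2 fold change of -2.73 with a standard error of 0.88. The AKO-labelled libraries lay within a narrow band and the WT libraries spread over a wide range, with replicate 2 close to the AKO-labelled values. Prg4, lubricin, had the same pattern at 5.57, 6.23 and 6.01 CPM against 30.9, 8.59 and 6.88 CPM (-1.38), where WT replicate 1 was far above the rest. Ryr3, a calcium release channel of the ryanodine receptor family, was at 1.55, 1.53 and 1.56 CPM against 3.45, 2.26 and 2.65 CPM (-0.85), and Fcna, a ficolin of macrophages, at 33.5, 30.4 and 23.1 CPM against 55.5, 39.7 and 50.4 CPM (-0.74). Sepp1, the plasma selenium carrier, was an abundant member at 1289.6, 1274 and 1212 CPM against 1809, 1519.6 and 2436 CPM (-0.61). Ctsh, a lysosomal cysteine protease, was at 68.3, 78.5 and 80.5 CPM against 116, 128 and 82.7 CPM (-0.52), and Pydc3, an interferon-inducible gene, at 16.3, 10.6 and 18.4 CPM against 22.6, 24.3 and 20.9 CPM (-0.58). The others, with Ccl9 among them, were Gm16907 (-0.69), 2610020H08Rik (-0.55), the mitotic kinase cofactor gene Bora (-0.50) and Nme4 (-0.48), a mitochondrial nucleoside diphosphate kinase. Without cold WT replicate 3, Serpina3k (-1.91), Fcna (-0.72), Sepp1 (-0.40) and Nme4 (-0.33) did not pass. Under each of the 11 alternatives run for single genes, the 12 higher genes passed, and of the 12 lower genes Gm16907 and Ryr3 did. The setting without cold HIF2α AKO replicate 1 is among these alternatives and was a condition of the choice. Leaving out both libraries that stood apart was not among these alternatives. In that setting 9 of the 12 higher and 7 of the 12 lower genes passed. Other than Zfp949, the 24 genes had edgeR adjusted p from 0.438 to 1.00.

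**Figure D4:**
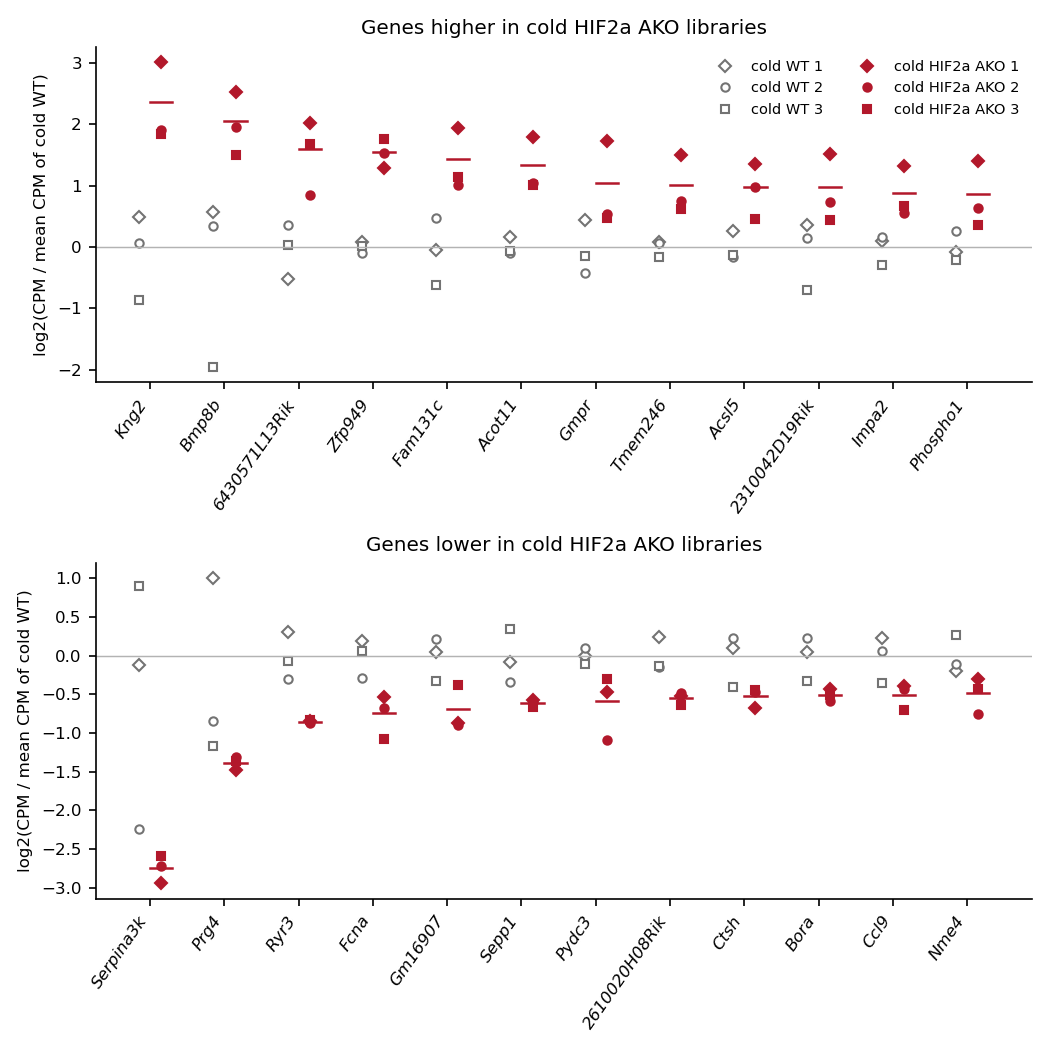
Level of the 12 higher (top) and 12 lower (bottom) genes in each cold library, as log2 of its CPM over the mean CPM of cold WT. Open symbols are WT and filled symbols AKO-labelled libraries, bars mark the mean of the latter, and no gene overlaps between the groups because the genes were chosen so. The spread within groups, which the choice limits in part through the p, is narrow for Zfp949 and wide for the WT values of Serpina3k and Prg4.

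DESeq2 on the 6 cold libraries alone gave an adjusted p under 0.05 for 13 genes, or 0.0763% of the 17032 it adjusted. Besides Zfp949, Acot11, Kng2, Eif4a2, Kng1, 6430571L13Rik, Fam131c, Hmox1 and Serpina3k, these were Cxcr7, Deptor, Gm9899 and Lgr6. Cxcr7, an atypical receptor that scavenges CXCL12, was at 97.9, 109 and 97.2 CPM against 78.8, 68.4 and 70.3 CPM (edgeR log2 fold change 0.48), Deptor, an inhibitor of mTOR, at 96.3, 69.6 and 81.8 CPM against 37.3, 45.5 and 51.9 CPM (0.88), and Lgr6, a receptor for R-spondins, at 41.7, 25.1 and 18.3 CPM against 11, 10.9 and 5.31 CPM (1.65). Gm9899 was at 25.6, 18.7 and 17.3 CPM against 10.2, 10.5 and 9.53 CPM (1.03). All 4 were separate between the groups, and Cxcr7 alone also passed in edgeR without cold HIF2α AKO replicate 1 (0.51).

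Whether these differences also held at TN was read from the 6 TN libraries, of which TN HIF2α AKO replicate 2 held 2605 CPM of muscle markers. They come from other mice, but the fit took its filter and its estimate of spread from all 12 libraries. At TN 446 genes (2.91%) passed, and over both temperatures 557 (3.64%). Of the 75 genes that passed as higher both times in the cold, 38 (50.7%) had the same sign at TN and 5 passed there in that direction, and of the 70 lower genes 31 (44.3%) and 6. Among all tested genes 54.8% had the same sign. Of the 24 named genes, 3 passed at TN, namely Zfp949 (1.57), Gm16907 (-0.56) and Pydc3 (0.65), the last in the opposite direction. The interaction of genotype and temperature passed at an unadjusted p under 0.05 for 327 genes (2.14%), and 0 had an adjusted p under 0.05 in edgeR or in DESeq2 on the 12 libraries. Among the named genes 6 of the 12 higher and 9 of the 12 lower had an unadjusted interaction p under 0.05, but they were chosen for their difference in cold, which enters that contrast.

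**Figure D5:**
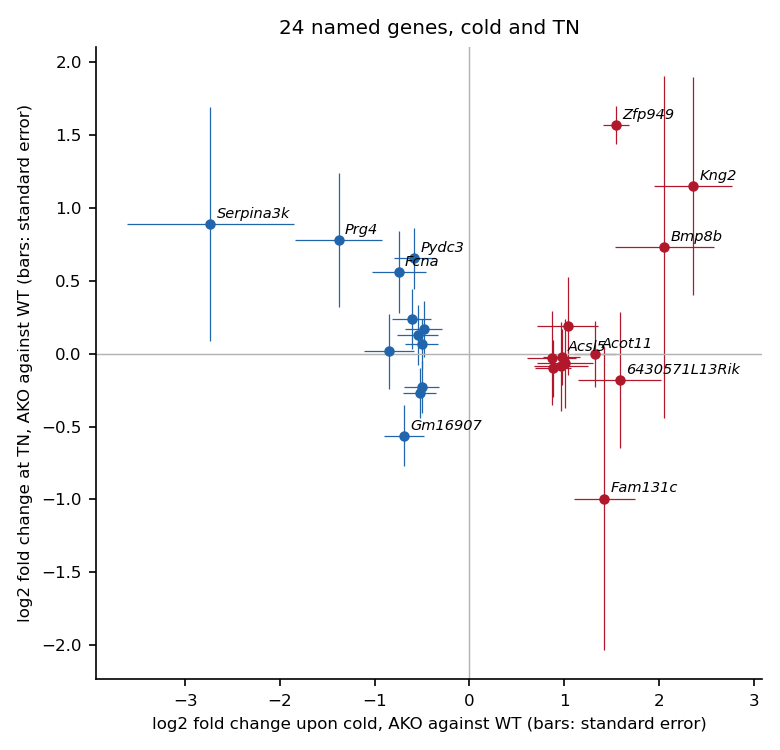
Log2 fold change of AKO-labelled against WT libraries upon cold (x axis) and at TN (y axis) for the 24 named genes, with standard errors of the edgeR fit (3 mice per group) as bars; red genes were higher and blue genes lower in cold. Zfp949 is at 1.55 in cold and 1.57 at TN, and 4 of the 12 higher and 3 of the 12 lower genes have the same sign at both temperatures.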

How the data were processed

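RNA of iWAT from 12 male mice, 3 in each of 4 groups, was sequenced by the authors, who trimmed reads with Trim Galore 0.4.4, aligned them to GRCm38 (mm10) with STAR 2.6.1d, counted them per gene with HTSeq 0.13.5 and compared groups with DESeq2 1.30.0 with limits of 0.15 on p and 0.2 on the size of the log2 fold change. The deposited values are raw counts per gene, and the 12 columns of the series table were identical to the files of the single libraries. Cold libraries held 23635703 to 29983577 counts in genes, and the 5 summary entries outside genes, 21.9 to 27.0% of all counts, were left out.

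Counts were fitted with edgeR 4.0.16 (quasi-likelihood test, TMM, filterByExpr at 10 counts per library and 15 in total, R 4.3.3) in 1 model of the 4 groups over all 12 libraries, with p adjusted by Benjamini-Hochberg over all tested genes. The contrasts were AKO-labelled against WT in cold, at TN, averaged over both, and their interaction. Tests were two-sided. Alternatives were DESeq2 1.42.0 size factors and tests, upper-quartile factors, no filter, the 6 cold libraries alone, limma 3.58.1 voom with quality weights, each cold library left out, and a replicate block, and 1 chosen after seeing the data, both cold libraries that stood apart left out together. The scripts were tested on simulated counts.

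Genes named in the text were the HIF subunits and hydroxylases, Prkaca with PKA subunit and thermogenic genes the study follows, Nos2, Mtor, genes with an adjusted p under 0.05, the 12 largest differences per direction that passed with and without cold HIF2α AKO replicate 1, up to 4 members per list with the smallest p and up to 2 with the highest level, and neighbours within 1 Mb of called genes, Adipoq and Epas1. The comparison, the lists and this rule were chosen with earlier results of these data known. Same-numbered libraries are different mice, and their deviations correlated above 0.1 in 5 of 18 pairs, so the numbers were not taken as pairs. Sequences came from RefSeq (GRCm38.p6) and 3′UTRs from the reference annotation.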

Additional observations from a re-analysis of the deposited data

Results flagged for a closer look

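In 3 of the genes described above, all AKO-labelled libraries lay on one side of WT in the cold and on the other side at TN. The unadjusted interaction p was under 0.05 for all 3, but the genes were picked for these opposite sides, which enter that contrast. This rule was applied to named genes only. None of the 3 interactions of genotype and temperature passed adjustment, where the edgeR adjusted p was 1.00 for each of them.

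Alpl, the phosphatase of the creatine cycle, was higher in cold and lower at TN in AKO-labelled libraries, at 9.43, 8.76 and 8.41 CPM against 11, 9.90 and 17 CPM at TN. Its interaction was 1.02 on the log2 scale (standard error 0.30). Prg4, lubricin, was lower in cold and higher at TN, at 6.51, 6.91 and 7.63 CPM against 4.46, 4.59 and 3.21 CPM, with an interaction of -2.16 (standard error 0.65). Pydc3 was also lower in cold and higher at TN, at 49.7, 44.7 and 70.8 CPM against 40.0, 33.1 and 31.8 CPM, with an interaction of -1.23 (standard error 0.30). Cold HIF2α AKO replicate 1 and TN HIF2α AKO replicate 2 held muscle transcripts, and the part of these in the 3 values was not tested.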

How the results depend on the processing

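The count of 1 gene with an adjusted p under 0.05 in cold became 0 with edgeR on the 6 cold libraries alone, 2 with voom, 7 with DESeq2 on 12 libraries and 13 with DESeq2 on the 6 cold libraries, and stayed at 1 whichever cold library was left out. Genes with an unadjusted p under 0.05 numbered 451 against 1177 with voom, and ranged from 220 (without cold HIF2α AKO replicate 1) to 937 (without cold WT replicate 3) when a library was left out, with 725 without cold HIF2α AKO replicate 3. Genes at the study's thresholds numbered 1374 against 2892 with voom, and 914 to 2989 when a library was left out, the ends belonging to the same libraries, with 2279 without cold HIF2α AKO replicate 3. DESeq2 on 12 libraries gave 12 genes in place of 1 for genotype over both temperatures and 11 in place of 1 at TN. With the replicate block, 342 and 1224 genes met the unadjusted limit and the study's thresholds, and the block changed no other count by more than 1.5 times. The causes of these changes were not tested.

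Among 1000 values of 91 named genes under 11 alternatives, 13 in 7 genes changed sign, all in genes that did not pass. Without filter, Arnt was at 0.009 and Egln2 at 0.016, and Egln2 was at 0.007 with DESeq2's size factors. When a cold library was left out, the log2 fold change ranged from -0.054 to 0.015 for Arnt, -0.189 to 0.51 for Arnt2, -0.090 to 0.397 for Dio2, -0.057 to 0.075 for Egln2, -0.357 to 0.19 for Egln3, -0.037 to 0.546 for Fasn and -0.063 to 0.006 for Vhl. Of the 63 named genes that passed, 20 did so under each of these 11 alternatives and 35 without cold HIF2α AKO replicate 1. List medians moved by more than 1 SD in 16 of 320 values, in 10 of 40 lists. With 3 mice per group and a biological coefficient of variation of 0.202, small differences in genes of low level are not resolved at this depth.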
